A study of Mus musculus with 6 samples.

Results

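The variable segments of the T cell receptor alpha chain, the Trav genes, were followed by RNA sequencing in CD4+ T cells isolated from spleen, in 6 female C57BL/6 mice. Of 39171 rows in each library's file, 103 were Trav segments. They were found by Ensembl identifier, since the files leave the name cell of these rows blank. The GENCODE M21 annotation of build GRCm38 gives 128 segments whose symbol begins with Trav, and the other 25 were not analysed here. The AngII group was 3 mice given angiotensin II, a peptide hormone that raises blood pressure, by osmotic minipump at 800 ng/kg/min for 14 days. The Control group was 3 untreated mice. All 6 mice were premenopausal females and 10 weeks old when the 2-week period began, and the labels name no mutant allele or transgene. Each mouse gave 1 library, and the values are FPKM, fragments scaled to transcript length and to library size.

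An alpha chain is made in the thymus by joining a variable segment to a joining (Traj) segment, and splicing of the transcript adds the constant segment Trac. The variable segment codes for most of the part of the chain that touches antigen and the major histocompatibility complex, so the mixture of segments in a T cell population describes its alpha chain repertoire. In mice much of the locus was copied within itself, and the copies carry a d or an n in their names. Usage is here the share of a library's summed Trav FPKM that falls on a segment, in percent. In bulk RNA, fewer cells carrying a segment and less of its RNA per cell cannot be told apart.

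The copies limit what a single segment's value can say, and the sequences below show how alike they are. Each is 120 bases of coding sequence from a GENCODE M21 transcript, 5′ to 3′ on the plus strand of chromosome 14 (GRCm38). The first of each set stops 6 bases before the segment's annotated end, near the codon of the conserved cysteine where the joined region begins. The others are the best-matching 120 bases of the segments set beside it. Capitals mark bases that differ from the first sequence of the set. Trav7-2 (chr14:53391017-53391136) was the most used segment. Its copy Trav7d-2 (chr14:52684346-52684465), a segment not analysed here, was identical to it over this stretch, and Trav7-3 (chr14:53443713-53443832) differed at 6 bases.
Trav7-2: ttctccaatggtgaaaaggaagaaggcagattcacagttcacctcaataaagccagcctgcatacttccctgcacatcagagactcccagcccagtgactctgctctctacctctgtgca
Trav7d-2: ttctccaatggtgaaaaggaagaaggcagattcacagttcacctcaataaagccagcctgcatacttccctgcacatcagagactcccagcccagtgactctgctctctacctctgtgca
Trav7-3: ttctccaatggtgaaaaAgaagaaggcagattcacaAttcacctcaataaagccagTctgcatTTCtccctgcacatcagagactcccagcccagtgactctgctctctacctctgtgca

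Trav12-2 (chr14:53616789-53616908) and its copies Trav12d-2 (chr14:52916301-52916420) and Trav12n-2 (chr14:53227275-53227394) show a case in which the copies were identical to each other and were both listed at 0. They differed from Trav12-2 at 4 of these bases.
Trav12-2: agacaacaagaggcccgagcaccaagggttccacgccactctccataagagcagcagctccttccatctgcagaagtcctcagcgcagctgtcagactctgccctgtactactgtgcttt
Trav12d-2: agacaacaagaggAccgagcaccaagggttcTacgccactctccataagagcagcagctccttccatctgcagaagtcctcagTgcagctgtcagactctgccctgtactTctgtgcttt
Trav12n-2: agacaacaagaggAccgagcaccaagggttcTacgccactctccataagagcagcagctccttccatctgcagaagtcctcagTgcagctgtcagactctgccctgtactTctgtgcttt

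Trav11 (chr14:53519734-53519853) and Trav11d (chr14:52824788-52824907), the segments of invariant natural killer T cells, were identical over this stretch.
Trav11: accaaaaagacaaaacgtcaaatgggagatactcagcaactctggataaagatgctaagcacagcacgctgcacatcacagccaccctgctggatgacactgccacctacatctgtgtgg
Trav11d: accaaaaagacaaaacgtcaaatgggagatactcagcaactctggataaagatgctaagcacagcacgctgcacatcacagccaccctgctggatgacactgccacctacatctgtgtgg

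Trav9-1 (chr14:53488442-53488561) and Trav8-1 (chr14:53470107-53470226), both described further on because their usage was higher in every AngII library, each have a close copy. Trav9d-1 (chr14:52792652-52792771) differed from Trav9-1 at 1 base, and Trav8d-1 (chr14:52778870-52778989) was identical to Trav8-1 here.
Trav9-1: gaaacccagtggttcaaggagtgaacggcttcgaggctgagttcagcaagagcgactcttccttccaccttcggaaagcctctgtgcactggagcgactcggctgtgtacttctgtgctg
Trav9d-1: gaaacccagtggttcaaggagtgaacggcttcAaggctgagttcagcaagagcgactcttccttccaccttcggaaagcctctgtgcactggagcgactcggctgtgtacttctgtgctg
Trav8-1: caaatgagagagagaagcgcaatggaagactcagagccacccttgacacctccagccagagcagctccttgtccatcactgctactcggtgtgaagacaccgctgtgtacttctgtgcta
Trav8d-1: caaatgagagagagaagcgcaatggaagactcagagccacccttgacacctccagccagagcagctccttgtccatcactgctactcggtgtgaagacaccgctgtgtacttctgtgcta

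Trav1 (chr14:52428751-52428870), the segment of mucosal-associated invariant T cells and the first of the locus, has no copy in the annotation.
Trav1: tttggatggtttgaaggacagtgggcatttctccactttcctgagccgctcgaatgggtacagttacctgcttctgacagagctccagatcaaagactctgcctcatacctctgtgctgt

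All 103 segments lie on the plus strand of chromosome 14, between 52427928 and 53876752, and are annotated as 98 functional segments and 5 pseudogenes. Their annotated exon length ran from 328 to 595 bases, with a median of 378. The summed Trav FPKM was 1163, 1114 and 919.6 in the Control libraries and 966.1, 1016 and 1160 in the AngII libraries. Both groups held 1 library near 1160 and their ranges overlapped, with means of 1065 ± 129 and 1047 ± 101 FPKM (SD, n = 3) and a log2 ratio of -0.024. The sign of that ratio was not stable, since it was 0.044 with libraries scaled to equal summed FPKM and also above 0 on leaving out Control replicate 1 (0.043), Control replicate 2 (0.0087) or AngII replicate 1 (0.031). It was -0.12 without Control replicate 3, -0.10 without AngII replicate 3 and -0.0032 without AngII replicate 2. Trac, which every alpha chain transcript carries, was at 1674, 1572 and 1389 FPKM in Control and 1434, 1445 and 1600 in AngII. The sum of the segments divided by Trac was 0.695, 0.708 and 0.662 in Control and 0.674, 0.704 and 0.725 in AngII. In each group the library lowest in the summed segments was also the lowest in Trac.

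**Figure D1:**
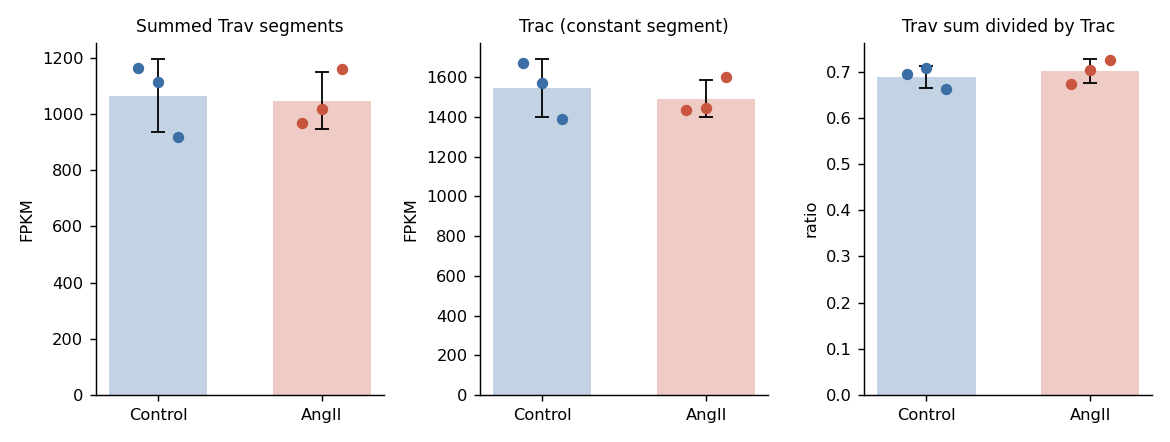
Summed Trav FPKM (left), Trac FPKM (middle) and their ratio (right) per library, with bars for group means and error bars for SD (n = 3). The points of the Control and AngII groups overlap in all 3 panels, and the ratio lies between 0.662 and 0.725.

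Expression was spread over many segments. Of the 103 segments, 73 were above 0 in all 6 libraries, 22 were listed at 0 in all 6, and 8 were above 0 in some. The 10 most used segments held 33.9% of usage, 17 segments made up the first 50% of it, and 40 segments each took more than 1%. Trav7-2 led in each of the 6 libraries. Trav14n-3, Trav13-1, Trav4-4-dv10 and Trav14-2 came next, at mean usages of 4.12%, 3.87%, 3.51% and 3.42%. Trav14d-3-dv8 (3.03%), Trav6-7-dv9 (2.71%), Trav3-3 (2.70%), Trav5-4 (2.58%) and Trav14-3 (2.49%) completed the 10. Neighbours in this order overlapped in their library values, apart from Trav7-2, whose lowest usage was 4.95% and whose range overlapped with that of Trav13-1 (2.78% to 5.29%) but not with that of Trav14n-3 (3.45% to 4.51%).

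**Figure D2:**
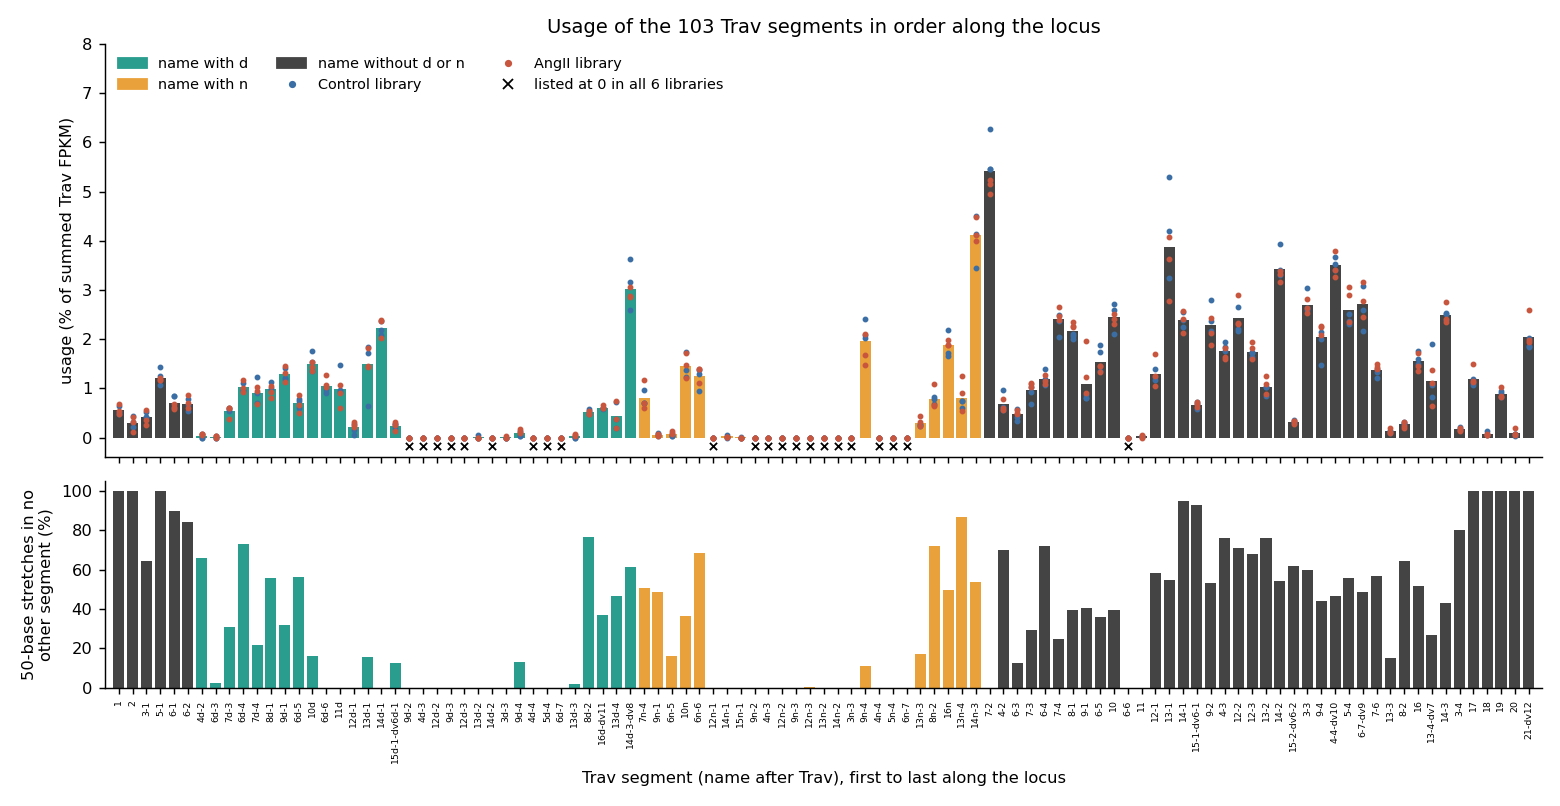
Usage of each of the 103 segments in percent of the summed Trav FPKM (top, bars for the mean of 6 libraries, points for libraries, crosses for segments listed at 0 in all 6) and the percent of its 50-base stretches found in no other annotated segment (bottom), both in order along the locus. Crosses sit where the lower bars are at or near 0, and Trav7-2 is the tallest bar although none of its stretches is its own.

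Segments whose names carry no d or n were 46 in number, and they held 68.5% of usage, with 1 of them listed at 0. The 32 d copies held 18.0%, with 9 listed at 0, and the 25 n copies held 13.5%, with 12 listed at 0. The share of the segments without a letter was 68.1%, 68.3% and 69.4% in Control and 69.1%, 69.2% and 67.0% in AngII, and the group ranges overlapped for all 3 kinds of name. Pseudogenes, which cannot give a full receptor chain, were measured at low levels. The 5 of them together held 0.567% ± 0.0295 of usage in Control and 0.604% ± 0.222 in AngII (SD, n = 3). Trav8-2 was the highest of them, at 2.29 to 3.61 FPKM.

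Where a segment was listed at 0, its sequence was in nearly all cases not its own. For each segment, the share of 50-base stretches of its transcripts that occur in no other annotated Trav gene was counted. Of the 22 segments listed at 0 everywhere, 21 had no such stretch, and the remaining one, Trav12n-3, had 1 (0.329% of its stretches). Among the 81 segments above 0 somewhere, 10 had none and the median share was 50.7%. The 8 segments with only stretches of their own were Trav1, Trav2, Trav5-1, Trav17, Trav18, Trav19, Trav20 and Trav21-dv12, and none of them was listed at 0 in any library. The same kind of split appeared within identical pairs. Trav11d averaged 10.6 FPKM and Trav11 0.322 FPKM, Trav14d-1 averaged 23.7 and Trav14n-1 0.256, Trav6d-6 averaged 11.02 while Trav6-6 was listed at 0, and Trav12d-1 averaged 2.19 while Trav12n-1 was listed at 0. How fragments that fit several copies were assigned is not given in the sources used here, and its part in these values was not tested. A value of Trav7-2 therefore cannot be told apart from one of Trav7d-2, nor Trav11d from Trav11.

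Grouped by the number after Trav, the segments form 21 families, whose sums depend less than single segments on how fragments were shared among the copies within a family. Copies not analysed here, such as Trav7d-2, are left out of these sums. How fragments were shared with them can still affect a family's value. The Trav14 family (9 members, 2 listed at 0) held 17.7% of usage, the Trav7 family (7 members) 12.4%, the Trav6 family (15 members) 11.4%, the Trav13 family 9.23% and the Trav9 family 8.83%. These 5 together held 59.6%. Next came the Trav4 family at 6.01%, Trav12 at 5.68%, Trav10 at 5.40%, Trav8 at 4.73%, Trav16 at 4.06%, Trav5 at 3.80%, Trav3 at 3.30% and Trav21 at 2.04%. The other 8 families were each under 2%, and the lowest were the single-segment families Trav20 at 0.0844% and Trav18 at 0.0677%.

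None of the 21 families separated the groups. The Trav14 family was at 19.4%, 17.5% and 16.6% in Control and at 17.3%, 17.8% and 17.6% in AngII. Its Control libraries spread more widely than its AngII libraries and enclosed them. The Trav13 family had the widest spread, at 7.64%, 9.13% and 11.5% in Control and at 7.70%, 8.64% and 10.8% in AngII. In both groups the library numbered 3 was the highest, and the group means were 9.41% ± 1.93 and 9.05% ± 1.60 (SD, n = 3). The Trav12 family was at 5.13%, 5.79% and 5.46% in Control and at 6.28%, 6.24% and 5.16% in AngII, a pair of AngII libraries being above every Control library.

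**Figure D3:**
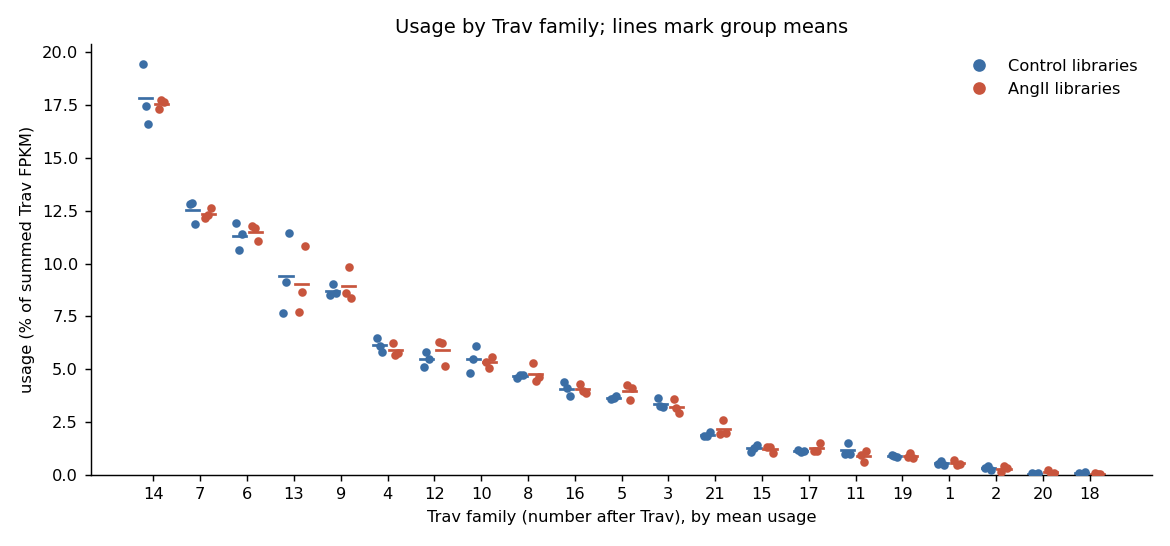
Usage of the 21 Trav families in percent of the summed Trav FPKM, families in order of mean usage, with a point per library and lines for group means (n = 3). Control and AngII points overlap in every family, and the Trav13 family is the most spread, from 7.64% to 11.5%.

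With family sums in place of segments, a fit added after the data had been seen, limma with Benjamini-Hochberg adjustment called 0 of the 19 families tested, and 0 had an unadjusted p below 0.05. Over the whole table of that fit, 0.0424% of features were called and 0.865% had an unadjusted p below 0.05. The log2 differences in family usage ran from -0.34 to 0.17, with 8 families higher and 11 lower in AngII, and 18 of 19 were within 0.25 of no difference. The median half-width of the 95% intervals was 0.28 on the log2 scale with 3 mice per group. These intervals are unadjusted, and the adjusted threshold asks for larger differences in a family's usage than this. The largest difference was that of the Trav11 family, at 0.977%, 1.52% and 0.962% in Control and at 0.916%, 0.626% and 1.13% in AngII. Its values overlapped, and the log2 difference was -0.34 (95% interval -0.92 to 0.23).

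No variable segment passed the test between AngII and Control, in level or in usage, and the library values of nearly all segments overlapped. The test was run on the whole table of genes. The scale was log2(FPKM + 1), on which fold changes of low segments are understated. The test, limma with an intensity trend and Benjamini-Hochberg adjustment, took in the 68 segments with a mean of at least 1 FPKM among 11842 genes. As deposited, 0 of the 68 segments passed an adjusted p of 0.05, beside 0.0338% of all genes. Segments with an unadjusted p below 0.05 also numbered 0, beside 1.76% of all genes, and the smallest was that of Trav9-1. The log2 differences in FPKM were positive for 34 segments and negative for 34, with a median of -0.00077 for the segments and -0.0040 for all genes. When libraries were scaled to equal summed FPKM instead, 41 were positive and 27 negative, with medians of 0.057 and 0.058. No tested segment had FPKM ranges that did not overlap between the groups (0 of 68), a pattern found in 5.84% of all genes.

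For usage, the whole table was rescaled so that each library had the same summed Trav FPKM, and the same test was repeated. Again 0 of 68 segments passed the threshold, beside 0.0422% of all genes. Trav9-1 was the 1 segment whose unadjusted p was below 0.05, a level reached by 0.87% of all genes. The log2 differences in usage ran from -0.34 (Trav11d) to 0.61 (Trav9-1), with 36 segments higher and 32 lower in AngII and a median of 0.014, beside 0.015 over all genes. Of the 68 segments, 85.3% were within 0.25 of no difference, against 91.9% of all genes. The 95% intervals had a median half-width of 0.34 and ran up to 1.11 for Trav13d-4. For a typical segment, a difference smaller than this median half-width would give an interval that includes 0. The intervals are unadjusted and the adjusted threshold asks for more, since Trav9-1 at 0.61 did not pass it.

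**Figure D4:**
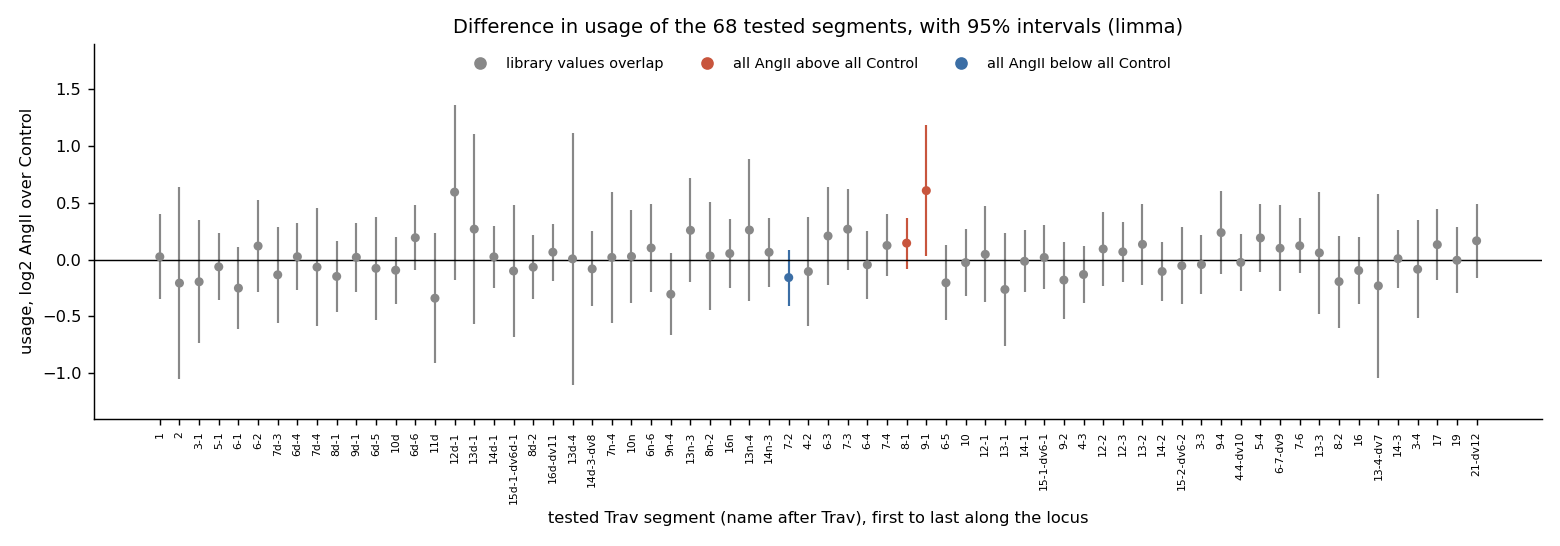
Log2 difference in usage, AngII over Control, for the 68 tested segments in order along the locus, with 95% limma intervals. The values run from -0.34 to 0.61, and the 3 coloured segments are those whose library values do not overlap between groups.

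The groups did not overlap in usage for 3 of the 68 tested segments, 2 higher and 1 lower in AngII. Over all genes the groups did not overlap for 1.82%, with 0.853% higher and 0.971% lower in AngII. Before the rescaling that share was 5.84%. The rescaling divides every gene by the Trav sum, which is made of the segments and not of the other genes. Shares of all genes in usage are therefore not a like measure for the segments. None of the 3 passed the adjusted threshold, so they are given as values. With 1 library left out, 6 to 15 of the 68 segments did not overlap, and the share of all genes rose as well. It was 15 segments (22.1%) beside 6.97% of all genes without AngII replicate 1, and 6 segments (8.82%) beside 18.3% of all genes without Control replicate 3. Trav9-1 was at 0.864%, 0.795% and 0.808% of usage in Control and 0.911%, 1.95% and 1.23% in AngII. The Control libraries lay close together, and the AngII libraries lay above them by amounts that ranged from small to more than the whole Control level. In FPKM it was at 10.0, 8.85 and 7.43 in Control and at 8.81, 19.9 and 14.2 in AngII, where the groups overlap. Its log2 difference in usage was 0.61 (SE 0.24, 95% interval 0.034 to 1.18), with a Benjamini-Hochberg adjusted p of 0.9999 in limma, and of at least 0.504 in every alternative tried. Without AngII replicate 2 the difference was 0.33. Of its 50-base stretches, 40.4% occur in no other segment. Its copy Trav9d-1, at 11.6 to 16.8 FPKM, overlapped between the groups, as did the Trav9 family as a whole, at 8.52% to 9.03% in Control and 8.39% to 9.82% in AngII.

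Among the 68 tested segments, Trav8-1 had the lowest coefficient of variation of usage within groups, at 2.33%, while that of its FPKM was 11.4%. It was at 1.998%, 2.099% and 2.075% of usage in Control and 2.26%, 2.25% and 2.34% in AngII. All 3 AngII values lay above all 3 Control values by more than the spread inside either group. The log2 difference was small, at 0.15 (SE 0.095, 95% interval -0.078 to 0.37), and did not pass (Benjamini-Hochberg adjusted p = 0.9999, limma). In FPKM it was at 23.2, 23.4 and 19.1 in Control and at 21.9, 22.9 and 27.2 in AngII, which overlap. The Trav8 family overlapped as well, at 4.59% to 4.75% in Control and 4.43% to 5.28% in AngII.

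Trav7-2, the most used segment, was the 1 tested segment whose usage was lower in every AngII library. It was at 6.27%, 5.45% and 5.46% of usage in Control and 5.23%, 4.95% and 5.16% in AngII. The highest AngII library and the lowest Control library lay close together, and Control replicate 1 stood above the rest. The means were 5.73% ± 0.469 and 5.11% ± 0.144 (SD, n = 3), and the log2 difference was -0.16 (SE 0.10, 95% interval -0.40 to 0.089). Its Benjamini-Hochberg adjusted p in limma was 0.9999, and without Control replicate 1 the difference was -0.092. In FPKM it was at 72.9, 60.7 and 50.2 in Control and at 50.5, 50.3 and 59.8 in AngII, with overlap.

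**Figure D5:**
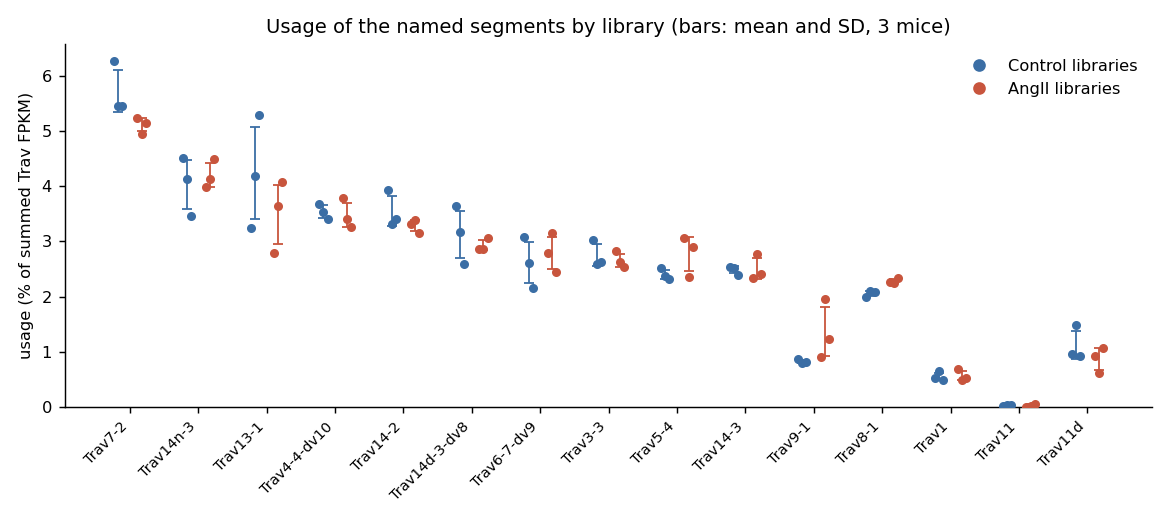
Usage in percent of the summed Trav FPKM for the 10 most used segments, the 2 others whose groups do not overlap, and the segments of invariant T cells, with a point per library and bars for mean and SD (n = 3). Trav7-2 lies lower, and Trav8-1 and Trav9-1 higher, in all AngII libraries, and the other segments overlap.

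The rest of the 10 most used segments overlapped between the groups. Trav14n-3 was at 4.51%, 4.13% and 3.45% in Control and at 3.99%, 4.12% and 4.49% in AngII, a log2 difference of 0.065. Trav13-1 varied more, at 3.25%, 4.19% and 5.29% in Control and at 2.78%, 3.63% and 4.07% in AngII, with a difference of -0.26 (95% interval -0.76 to 0.23). Its AngII values were shifted down but lay mostly inside the Control range, and the difference was -0.093 without Control replicate 3 and -0.11 without AngII replicate 1. Trav4-4-dv10 was at 3.68%, 3.53% and 3.41% and at 3.78%, 3.41% and 3.27%, with a difference of -0.024 (95% interval -0.27 to 0.22). Trav14-2 was at 3.93%, 3.31% and 3.41% and at 3.32%, 3.39% and 3.16%, with a difference of -0.10 that was -0.030 without Control replicate 1. The groups overlapped in both.

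Trav14d-3-dv8 was at 3.64%, 3.17% and 2.59% of usage in Control and 2.86%, 2.87% and 3.06% in AngII, a log2 difference of -0.081. Trav6-7-dv9 was at 3.08%, 2.60% and 2.16% and at 2.78%, 3.16% and 2.45%, a difference of 0.10. For both, the spread within Control covered most of the AngII values. Trav3-3 was at 3.03%, 2.58% and 2.63% and at 2.82%, 2.63% and 2.53%, a difference of -0.043. Trav5-4 was at 2.51%, 2.37% and 2.32% and at 3.07%, 2.35% and 2.89%, a difference of 0.19 (95% interval -0.11 to 0.49) that was 0.12 without AngII replicate 1 and 0.30 without AngII replicate 2. A pair of its AngII libraries lay above Control, while AngII replicate 2 lay within it. Trav14-3 was at 2.54%, 2.52% and 2.39% and at 2.34%, 2.77% and 2.40%, a difference of 0.0086.

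The segments of invariant T cells were looked at on their own. Trav1, which pairs with Traj33 in mucosal-associated invariant T cells, was at 0.528%, 0.645% and 0.486% of usage in Control and 0.679%, 0.487% and 0.531% in AngII. Its groups overlapped, with a log2 difference of 0.026 (95% interval -0.35 to 0.40). Trav11d, with Trav11 the partner of Traj18 in invariant natural killer T cells, was at 0.958%, 1.48% and 0.920% in Control and at 0.916%, 0.607% and 1.07% in AngII. Control replicate 2 was the highest and AngII replicate 2 the lowest, and the difference of -0.34 (95% interval -0.91 to 0.23) was -0.14 without the first and -0.13 without the second. Trav11 itself, at 0.223, 0.435 and 0.386 FPKM in Control and 0, 0.193 and 0.693 in AngII, was under the filter.

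Traj18 was listed at 0 in all libraries but Control replicate 2 (246.1 FPKM), and Traj33 in all but AngII replicate 2 (409.5 FPKM), so neither gave a usable measure of these cells. The other invariant T cell genes, among them the transcription factor Zbtb16, gave none past the threshold, and with the joining segments 0 of the 9 genes in the list passed, with 0 at an unadjusted p below 0.05. The list's summed FPKM was 220.7 to 490.0 in Control and 232.2 to 599.4 in AngII, and it was highest in the libraries that listed Traj18 or Traj33.

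Of the 103 segments, 9 can also join to the delta chain of gamma-delta T cells and carry dv in their names. Together they held 14.8%, 14.1% and 14.0% of usage in Control and 14.4%, 14.6% and 13.8% in AngII, which overlap. The largest of them were Trav4-4-dv10 and Trav14d-3-dv8, given above. Trav21-dv12, the last segment of the locus, was at 1.91% ± 0.103 in Control and 2.17% ± 0.369 in AngII (SD, n = 3). The gamma-delta list, 6 of whose 7 genes were measured, summed to 36.5 to 52.5 FPKM in Control and 32.7 to 51.5 in AngII. A pair of its genes under the filter, and so not tested, did not overlap between the groups, in opposite directions. In usage, 5.65% of all genes under the filter and above 0 in some library did not overlap. That share was not counted in FPKM, so this pair cannot be set against a background. Trdv4, a delta variable segment, was at 1.42, 1.16 and 1.02 FPKM in Control against 0.420, 0.427 and 0.724 in AngII. Sox13, a transcription factor of gamma-delta T cells, was at 0.0679, 0.175 and 0.172 FPKM in Control against 0.242, 0.244 and 0.350 in AngII. Their part in the values of the dv segments was not tested. Trdc, the delta constant segment, was not analysed here.

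Segments under the filter numbered 35, of which 13 were above 0 in some library, at a mean of up to 0.969 FPKM for Trav9d-4. No segment was listed at 0 in every library of one group and above 0 in every library of the other (0 of 103). Usage did not overlap for 2 of these 13 segments, named after their values were seen, beside 5.65% of all genes that were under the filter and above 0 in some library. Trav6n-5 was at 0.493, 0.475 and 0.432 FPKM in Control and 0.865, 0.649 and 1.55 in AngII. Trav13d-3 was at 0.253, 0 and 0 FPKM in Control and 0.431, 0.416 and 0.777 in AngII. The lowest value above 0 listed for any segment was 0.187 FPKM, and 15.9% and 1.75% of the 50-base stretches of these 2 segments are their own.

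Whole usage profiles were compared between libraries, and those across groups were as alike as those within a group by both measures used. Over the 68 tested segments, Pearson's r of usage between libraries was 0.922 to 0.967 for the 6 pairs within a group and 0.932 to 0.969 for the 9 pairs across groups. These correlations are across segments, which are not independent replicates, and libraries share each segment's length and copies. The usage that would have to be moved between segments to turn one library's profile into another's was 6.59% to 9.77% within groups and 6.12% to 8.98% across them. The effective number of segments, the count of equally used segments that would give the same evenness, was 52.4, 53.7 and 54.1 in Control and 54.9, 54.2 and 54.8 in AngII. The groups do not overlap in it, but the gap between the nearest libraries was smaller than the spread within either group, and it depends on how fragments were shared among copies. It was not tested further.

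Values of segments varied more between libraries of a group than those of genes in general. The median coefficient of variation within groups was 15.9% for the FPKM of tested segments and 12.01% for their usage, against 9.45% for the FPKM of all genes tested. The genes were not matched to the segments in level or exon length, and the part of these in the spread was not tested. Usage varied most for Trav13d-4 (62.4%), Trav12d-1 (44.8%), Trav2 (43.8%) and Trav13-4-dv7 (40.2%), and least for Trav8-1, Trav16d-dv11 (4.21%), Trav7-6 (5.24%) and Trav7-2 (5.50%). Trav13d-4 was at 0.726%, 0.201% and 0.382% of usage in Control and 0.201%, 0.374% and 0.751% in AngII. Single libraries of both groups stood apart in it. Trav2, the second segment of the locus and one with no copy, was at 0.325%, 0.433% and 0.219% in Control and at 0.114%, 0.421% and 0.325% in AngII.

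Other parts of the receptor were read from the same fits. Trbc1 and Trbc2, the constant segments of the beta chain, had log2 differences of -0.26 and -0.31 when libraries were scaled to equal Trav FPKM, neither past the threshold. Trbc2 was at 1077, 1193 and 874.0 FPKM in Control and 638.2, 917.2 and 970.8 in AngII, with overlap, while Trac differed by -0.026. The 7 genes of receptor constant segments and CD3 chains were all lower in AngII in both fits. Among them 0 passed and 0 had an unadjusted p below 0.05, with a rescaled median of -0.11 beside 0.015 for all genes. The same counts were 0 of 9 for V(D)J recombination and end joining genes (median 0.0068) and 0 of 11 for factors of the alpha and beta enhancers and locus (median 0.050), which include Tcf7, Lef1 and Runx1. The recombinase genes Rag1 and Rag2 were at or near 0, at most 0.0213 and 0.0158 FPKM.

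Markers of other cells that an isolation of CD4+ cells can leave behind were compared between the groups. The CD8 T cell list (6 of 6 genes measured) summed to 53.8 to 65.6 FPKM in Control and 48.0 to 58.2 in AngII. Within it, Cd8a was at most 1.67 FPKM, while Cd8b1 ran from 9.33 (AngII replicate 2) to 12.007 FPKM (AngII replicate 3). The NK cell list summed to 60.1 to 94.6 and 43.5 to 76.9, immature thymocyte genes to 63.2 to 79.1 and 72.4 to 77.1, and B cell genes to 652.5 to 1146 and 581.0 to 943.0 FPKM. Most of the thymocyte sum was Themis, at 42.9 to 57.4 FPKM, and Cd1d1, at 16.3 to 18.7. Dntt was at 2.93 to 4.09 FPKM, while Rag1, Rag2 and Ptcra were at most 0.0213, 0.0158 and 0.070. The sum of each list overlapped between the groups, and 0 of its tested genes passed, with 0 at an unadjusted p below 0.05. The part of these cells in the segments' values was not tested.

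The authors' deposited table, which holds their own test of 2 conditions, was read beside these fits. It has 102 Trav rows, of which 71 were tested and 0 were marked significant. These rows are not the same units as the segments above. Trav7-2 shares a row with Trav7n-4, Trav13-3 is listed in separate rows, and Trav7n-6 is not among the segments analysed here. The smallest p among the tested rows in the authors' deposited table was 0.09375, for Trav12d-1, with 0 below 0.05 and a q-value of 0.9999. Its conditions are named only by number, so no direction was taken from it. In the libraries Trav12d-1 was at 0.625, 3.02 and 1.33 FPKM in Control and 3.08, 2.59 and 2.49 in AngII, with overlap.

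The whole library data set the precision of these values. Summed FPKM was 613674 to 717286 per library and 11438 to 11757 genes reached 1 FPKM. The number of fragments behind a value is unknown, since the deposited values could not be turned back into whole fragments. On simulated data of these libraries (AngII against Control, 11502 genes) the test found 34% of the genes given a log2 change of 0.5, 72% of those given 1, 96% of those given 2 and 98% of those given 3, and it made 12 false calls. Changes were given only to genes well above the filter, drawn from the whole table, and only the FPKM fit was run. The segments had a median coefficient of variation of 15.9%, against 9.45% for all genes tested. These shares may therefore be too high for segments, and they do not cover usage. The labels give 3 mice per group. The limma p-values and intervals rest on the spread between mice, moderated by a spread borrowed from all genes tested. With libraries rescaled to equal Trav FPKM, the median half-width over all genes was 0.35, against 0.26 in FPKM as deposited. Intervals of segments in usage draw on that wider borrowed spread.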

How the data were processed

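The members and lists were chosen with earlier results of these data known. The authors deposited FPKM per gene for each of 6 libraries; per the submitters' processing notes, Trimmomatic 0.32, TopHat2 2.1.1 and Cuffdiff were used with build GRCm38.p3, while the sources used here do not give read length, annotation or the handling of multiply aligned reads. The deposited table of the authors' own comparison gives a p-value and a q-value per gene. Symbols and positions came from GENCODE M21. Usage was a segment's FPKM over the library's summed Trav FPKM, and all segments were included. Genes averaging 1 FPKM or more were tested as log2(FPKM + 1) with limma 3.58.1 in R 4.3.3 (eBayes with trend, two-sided), with Benjamini-Hochberg adjustment over 11842 genes, at 0.05. The usage fit rescaled whole libraries to equal summed Trav FPKM. Sequence sharing was counted over 50-base stretches of annotated transcripts. Libraries differed from each other in at least 98.3% of tested genes, so none was a duplicate. Same-numbered libraries did not deviate together in FPKM as deposited, on the log2 scale (correlations of -0.080, -0.023 and -0.035). Replicate numbers were therefore not used as pairs. Named were the 10 most used segments, any past the threshold, up to 4 per direction with non-overlapping usage, any at 0 in all of one group only, and Trav1, Trav11 and Trav11d. Those of widest or narrowest spread, with low values or in identical pairs were named after their values were seen. Alternatives were other pseudocounts, filters, scalings, denominators, eBayes options, library weights, a replicate block and leaving out each library. Python 3.11.15, pandas 2.3.3, numpy 2.4.6 and matplotlib 3.10.9 were also used.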

Additional observations from a re-analysis of the deposited data

How the results depend on the processing

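No Trav segment passed the threshold under any of the 17 alternatives run on each fit (FPKM as deposited, usage), with smallest limma adjusted p-values of 0.275 and 0.504, both with library weights. Segments with an unadjusted p below 0.05 ranged from 0 to 4 in FPKM, the 4 (5.88%) beside 3.51% of all genes without Control replicate 3, and from 0 to 10 in usage, the 10 (14.7%) beside 9.27% of all genes with library weights. With the replicate block, 0 segments passed in either fit, while the genes called over the whole usage table rose from 5 to 54. In FPKM as deposited, same-numbered libraries did not deviate together, and this was not checked on the rescaled values. The log2 ratio of summed Trav FPKM ranged from -0.12 to 0.044, with changes of sign, under alternatives, and each move was smaller than the SD of 0.160 between single libraries' log2 sums. The count of segments whose groups do not overlap in usage was 5 with segments without d or n copies as denominator. The share of all genes was not counted under that denominator, so the 5 cannot be set against a background. With 1 library left out the count was 6 to 15, where 3 against 2 libraries overlap less easily. It was 12, 12 and 6 without Control replicates 1, 2 and 3, beside 7.71%, 3.38% and 18.3% of all genes, and 15, 9 and 7 without AngII replicates 1, 2 and 3, beside 6.97%, 8.21% and 7.99%. Without Control replicate 3 the FPKM differences were negative for 51 of 68 segments. Of 238 values of the 14 tested segments named, 224 kept their direction and 14 changed it, 10 of them on leaving out a library. Divided by Trac, Trav4-4-dv10 was at 0.00076. With library weights Trav3-3 was at 0.032, Trav14-3 at -0.022 and Trav1 at -0.17. On leaving out a library, Trav14n-3 ran from -0.040 to 0.15, Trav4-4-dv10 from -0.083 to 0.020, Trav14d-3-dv8 from -0.21 to 0.030, Trav6-7-dv9 from -0.026 to 0.22, Trav3-3 from -0.085 to 0.027, Trav14-3 from -0.062 to 0.053 and Trav1 from -0.094 to 0.13. The causes of these changes were not tested. The 7 others, Trav9-1, Trav8-1 and Trav7-2 among them, kept their direction throughout. Depth is unknown, and 3 mice per group limit what can be detected.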

Other observations

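Joining segments could not be read in the same way as variable ones. Of 60 annotated Traj segments, 59 were in the files, 29 of them were listed at 0 in all 6 libraries and 0 were above 0 in all 6, and their median exon length was 61 bases. Their summed FPKM was 5445, 2519 and 1686 in Control and 3717, 3427 and 11270 in AngII. The sum varied far more between libraries than that of the Trav segments. Trdj, the joining segments of the delta chain, summed to 3663 FPKM in AngII replicate 3 and were listed at 0 in the other libraries. The variable segments of the delta chain (Trdv), of which 5 of 6 were in the files and whose median exon length was 397 bases, summed to 19.4 to 22.6 FPKM in Control and 15.5 to 24.5 in AngII. Beta chain variable segments (Trbv), with 22 of 35 in the files, summed to 2275, 2297 and 1793 FPKM in Control and 1783, 1972 and 2140 in AngII, with overlap.

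The Trav13 family was highest in Control replicate 3 (11.5%) and AngII replicate 3 (10.8%), which were also the libraries highest in 5 of the 6 B cell genes, such as Cd79a at 36.5 and 38.0 FPKM against 8.50 to 15.9 in the other 4. The remaining gene, Ighm, did not follow this order, at 1042 FPKM in Control replicate 3 and 703.6 in AngII replicate 3 but 908.2 in AngII replicate 2, and with it the list's sum was higher in AngII replicate 2 (943.0) than in AngII replicate 3 (805.4). This was noticed after the values were seen and was not tested.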
